A study of Mus musculus with 6 samples.

Results

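The 10 genes examined here are Cav1 and Cav2, which encode caveolins, Nos3, which encodes endothelial nitric oxide synthase, and 7 genes used as markers of blood vessel endothelium, namely Kdr, Tek, Tie1, Eng, Pecam1, Cdh5 and Vwf. They were chosen by gene symbol from the 47719 genes listed for each mouse, each symbol matched 1 gene, and all 10 passed the filter on low values. RNA came from prostates of 6 mice of the line B6.129S4-Trp53tm3.1Tyj/J, bred for an R270H substitution in p53. Wildtype mice 39 and 41 (Trp53+/+) had 0 mutant alleles, heterozygous mice 37 and 40 (Trp53R270H/+) had 1 and homozygous mice 47 and 49 (Trp53R270H/R270H) had 2. Every mouse, the wildtype controls included, was about 3 months old and had received 5 Gy of whole body irradiation 6 h before dissection, so irradiated and unirradiated glands are not compared. The numbers are the animals' own, and no Cre driver or promoter is named for the allele. The question asked of these genes is how they differ between the genotypes and whether Cav1 and Nos3 follow the amount of vessel RNA in the gland. Values of a genotype are given in the order of the mice named here.

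Endothelial cells line the blood vessels. The VEGF receptor Kdr and the angiopoietin receptor Tek pass growth and stability signals to them, while Cdh5 and Pecam1 hold neighbouring cells together and Vwf is stored for clotting. Caveolae are small flask-shaped pits of the plasma membrane built from caveolins and cavins. In endothelium Cav1 binds the Nos3 enzyme and holds it in a less active state, and Nos3 makes the nitric oxide that relaxes the muscle of the vessel wall. Cav1 is not particular to vessels, since adipocytes, smooth muscle and fibroblasts are rich in caveolae as well. In RNA from a whole gland, fewer cells of a type and less RNA per cell cannot be told apart.

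Cav2 and Cav1 lie next to each other on the plus strand of chromosome 6 in GRCm38, Cav2 from 17281185 to 17289115 and Cav1 from 17306335 to 17341452, with 17219 bases between them. Nos3 lies on the plus strand of chromosome 5 from 24364810 to 24384474. Kdr lies on the minus strand of the same chromosome from 75932827 to 75978458, and Tie1 on the minus strand of chromosome 4 from 118471191 to 118490061. RefSeq promoter windows of GRCm38.p6, 250 bases before to 50 bases after a transcript start, were found for 6 of the 10 genes, and none was found for Nos3, Pecam1, Cdh5 and Vwf. The windows of the neighbouring caveolin genes are shown because their RNA levels differed in pattern between the genotypes, and those of Kdr and Tie1 because they stand for the growth factor and angiopoietin receptors. Each is written 5′ to 3′ on the strand of the gene, with GGAA or its reverse complement TTCC, the core of the motif bound by ETS factors, in capitals.
Cav1, chr6:17306085-17306384, plus strand: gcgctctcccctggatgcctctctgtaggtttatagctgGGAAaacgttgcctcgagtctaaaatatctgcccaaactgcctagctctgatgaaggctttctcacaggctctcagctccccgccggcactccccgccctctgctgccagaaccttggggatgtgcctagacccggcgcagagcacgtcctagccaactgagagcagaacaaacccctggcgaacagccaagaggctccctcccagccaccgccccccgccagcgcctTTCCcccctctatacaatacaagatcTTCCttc
Cav2, chr6:17280935-17281234, plus strand: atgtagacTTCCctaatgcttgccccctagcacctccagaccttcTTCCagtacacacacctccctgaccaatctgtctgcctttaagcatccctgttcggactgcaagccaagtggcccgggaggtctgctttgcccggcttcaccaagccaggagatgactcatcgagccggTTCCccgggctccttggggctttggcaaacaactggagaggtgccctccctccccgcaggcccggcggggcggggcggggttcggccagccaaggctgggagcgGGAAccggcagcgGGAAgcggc
Kdr, chr5:75978406-75978705, minus strand: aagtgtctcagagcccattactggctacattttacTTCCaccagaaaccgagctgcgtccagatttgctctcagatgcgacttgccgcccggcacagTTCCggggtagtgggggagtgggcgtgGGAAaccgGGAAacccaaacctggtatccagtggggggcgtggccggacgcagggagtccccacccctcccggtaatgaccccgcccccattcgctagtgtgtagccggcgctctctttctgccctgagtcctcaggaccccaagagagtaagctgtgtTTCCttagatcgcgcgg
Tie1, chr4:118489800-118490099, minus strand: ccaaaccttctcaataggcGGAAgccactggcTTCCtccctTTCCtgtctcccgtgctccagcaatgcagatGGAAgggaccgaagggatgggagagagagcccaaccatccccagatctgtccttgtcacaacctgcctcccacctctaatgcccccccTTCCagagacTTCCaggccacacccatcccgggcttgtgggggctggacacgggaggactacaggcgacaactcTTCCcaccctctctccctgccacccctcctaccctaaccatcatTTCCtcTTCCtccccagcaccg
On both strands together, the ETS core occurred 3 times in this Cav1 window and 3 times in a second Cav1 window that does not hold the annotated gene start. It occurred 5 times in Cav2, 5 times in Kdr, 9 times in Tie1, 2 times in Tek and 4 times in Eng. Of the 32817 promoter windows in the table, 96.0% held at least 1 such core, with a median of 3, so these 4 letters occur nearly everywhere. The GC box GGGCGG, searched on both strands, occurred 2 times each in the first Cav1 window, in Cav2, where the matches share 1 base, and in Kdr, overlapped an ETS core in none of them, and was held by 35.6% of all windows. The half-site motif of p53, searched on both strands, was not found in any of the 7 windows of these genes, against 8.36% of all windows. A match or its absence describes these letters in this window and nothing about binding.

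All 6 libraries listed the same 47719 genes, of which 13452 to 13827 per mouse had an FPKM (fragments relative to exon length and to all mapped fragments) of 1 or more. Fragment counts are not part of the files, and the lowest values gave fragment numbers of 0.785 to 1.06 relative to mouse 39, so the counting error behind a single value is unknown. Homozygous mouse 47 stood apart in its epithelial genes. The prostate secretory gene Pbsn had an FPKM of 257 in mouse 47 against 7329 to 11512 in the other 5 mice. Homozygous against wildtype fold changes and list medians that moved by over 1.5 times without mouse 47 are therefore also given without it. Pbsn was read in all 6 mice, as were all 10 vessel and caveolin genes.

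Values were compared as log2(FPKM + 0.1) with limma over 13818 genes whose mean FPKM was 1 or more, and a gene passed when its Benjamini-Hochberg adjusted p-value over these genes was under 0.05. Fold changes, and differences between genotypes, are on this log2 scale throughout, which understates those of weakly expressed genes. With the moderated F-test of limma over the 3 genotypes, 0 of the 10 genes passed, against 0.101% of all genes tested (14 genes). At an unadjusted p-value under 0.05 the F-test gave 4 of the 10, namely Cav1, Tie1, Pecam1 and Cdh5, against 11.5% of all genes. In homozygous against wildtype mice 0 of the 10 passed in limma (0.384% of all genes) and 4 had an unadjusted p-value under 0.05, namely Cav1, Kdr, Tie1 and Cdh5 (18.0% of all genes). In heterozygous against wildtype mice 0 of the 10 passed in limma, as did 0% of all genes, and Tie1, Pecam1 and Cdh5 had an unadjusted p-value under 0.05 (6.87% of all genes). In homozygous against heterozygous mice 0 of the 10 passed in limma (0.0145% of all genes) and Cav1 alone had an unadjusted p-value under 0.05 (6.39% of all genes). A test on each gene alone, without moderation, passed 0 of the 10 and 0% of all genes in each of these comparisons. The differences of the 10 genes below are therefore descriptions of these 6 mice that did not pass a test over all genes.

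Counted by values alone, 6 of the 10 genes (Cav1, Nos3, Kdr, Tie1, Pecam1 and Cdh5) were higher in both homozygous mice than in both wildtype mice, a pattern shown by 21.3% of all genes tested. None of the 10 was lower in both, against 28.7% of all genes. Both heterozygous mice lay above both wildtype mice for 5 genes (Nos3, Tek, Tie1, Pecam1 and Cdh5; 19.2% of all genes) and below them for 1 gene, Cav2 (19.9% of all genes). Both homozygous mice lay above both heterozygous mice for Cav1 and Kdr (18.0% of all genes) and below them for Eng and Pecam1 (24.1% of all genes). The median log2 fold change of the 10 genes was 0.38 in homozygous and 0.44 in heterozygous against wildtype mice, beside -0.04 and -0.01 over all genes tested. Both comparisons use the same wildtype mice, so their values are not independent of each other.

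**Figure D1:**
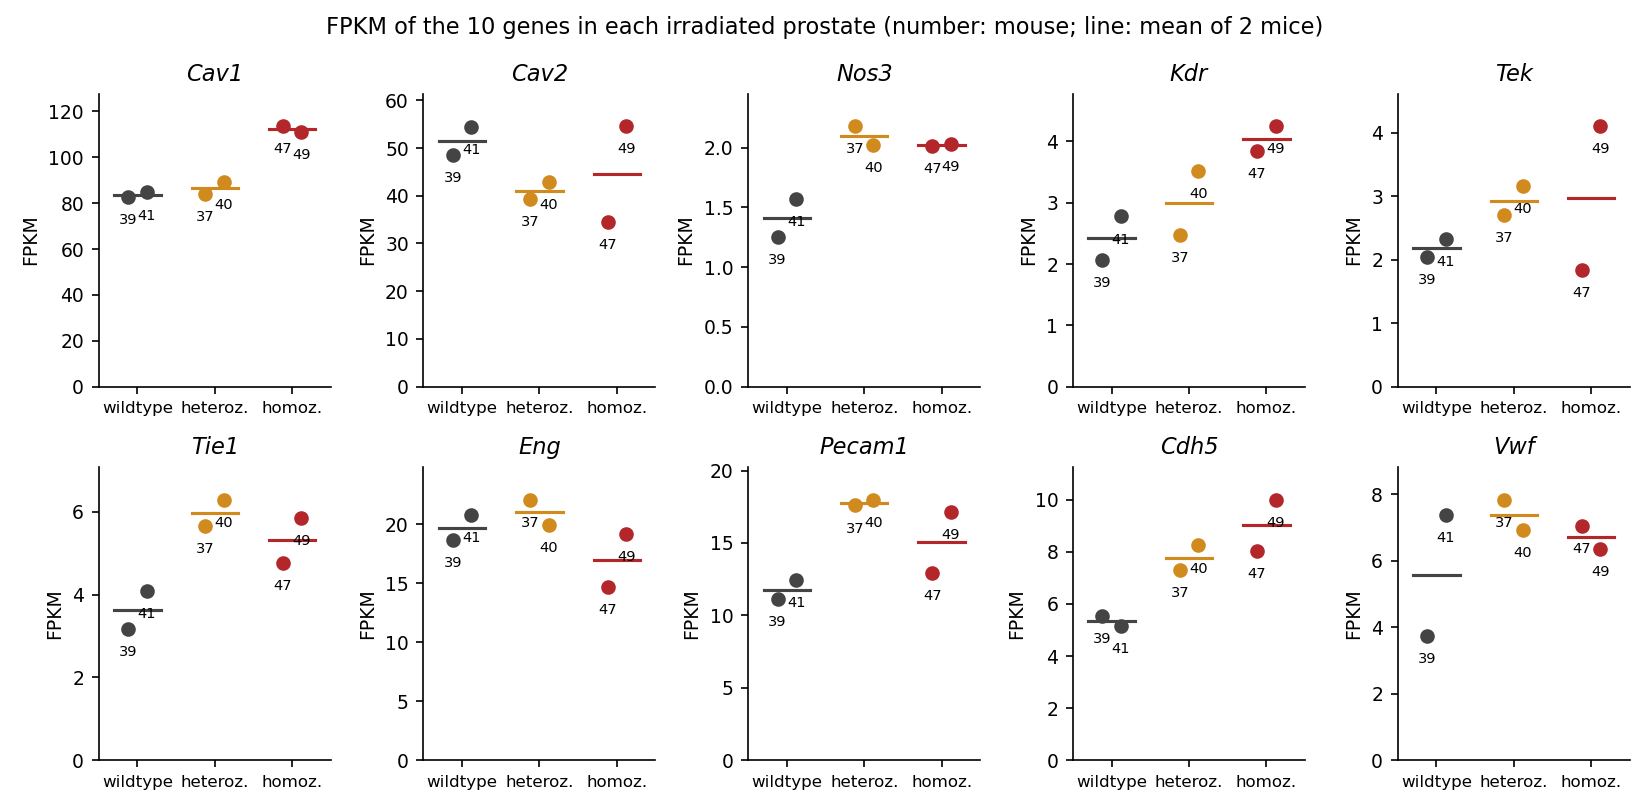
FPKM of the 10 genes (y axis, from 0) in each mouse, grouped by genotype on the x axis, with each point labelled by its mouse and a line at the mean of the 2 mice. Cav1 sits at 82.9 to 89.4 in the wildtype and heterozygous mice and at 111 and 114 in the homozygous mice, while Nos3 and Pecam1 are lower in the wildtype mice than in every mutant mouse.

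Cav1, the main coat protein of caveolae, had the highest level of the 10 genes, with an FPKM of 82.9 and 84.7 among wildtype, 84.0 and 89.4 among heterozygous and 114 and 111 among homozygous mice. The homozygous values lay above all 4 others, and the heterozygous and wildtype values were interleaved. The mean FPKM was 83.8 ± 1.27 for wildtype, 86.7 ± 3.83 for heterozygous and 112 ± 1.89 for homozygous mice (SD, n = 2 each). Against wildtype, the homozygous log2 fold change was 0.42 (SE 0.11, 95% confidence interval 0.14 to 0.71, limma adjusted p = 0.183), a 1.34-fold difference. That of homozygous against heterozygous mice was 0.37 (SE 0.11, limma adjusted p = 0.707), and that of heterozygous against wildtype mice 0.05 (SE 0.11, interval -0.23 to 0.33, limma adjusted p = 0.971). These intervals, here and below, come from limma and are not adjusted for the number of genes. Without mouse 47 the homozygous against wildtype difference was 0.41. The mice of a genotype differed by at most 0.09 on the log2 scale, and the pooled SD of 0.04 was the smallest of the 10 genes.

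Cav2, the second caveolin, which forms joint complexes with Cav1, did not share that pattern. Its FPKM was 48.5 and 54.3 among wildtype, 39.3 and 42.9 among heterozygous and 34.5 and 54.6 among homozygous mice. The heterozygous mice were below the wildtype mice, and the homozygous mice held the lowest and the highest value of all 6. The log2 fold change was -0.24 in homozygous (SE 0.23, interval -0.80 to 0.32, limma adjusted p = 0.606) and -0.32 in heterozygous against wildtype mice (SE 0.23, interval -0.89 to 0.24, limma adjusted p = 0.874). The first rested on mouse 47, without which it was 0.09. FPKM is scaled by exon length, so the caveolins can be set against each other: the ratio of Cav1 to Cav2 FPKM was 1.71 and 1.56 among wildtype, 2.14 and 2.09 among heterozygous and 3.29 and 2.03 among homozygous mice. It was thus lower in both wildtype mice than in every mutant mouse, through Cav2 in the heterozygous mice and through Cav1 in mouse 49, whose Cav2 value was as high as in wildtype. An antisense gene that spans both caveolins was listed at 0 in all mice but mouse 40, with an FPKM of 0.0127 there.

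Nos3, the endothelial nitric oxide synthase, had the lowest level of the 10 genes and lay in the lowest part of the tested range, at percentile 12.1 of the genes tested. Its FPKM was 1.25 and 1.57 among wildtype, 2.18 and 2.02 among heterozygous and 2.02 and 2.03 among homozygous mice. All 4 mutant mice lay above both wildtype mice, and the mutant genotypes overlapped. The log2 fold change was 0.50 in homozygous (SE 0.24, interval -0.09 to 1.09, limma adjusted p = 0.333) and 0.55 in heterozygous against wildtype mice (SE 0.24, interval -0.04 to 1.14, limma adjusted p = 0.766). Homozygous less heterozygous mice came to -0.05 (interval -0.64 to 0.54, limma adjusted p = 0.951). The last bases of Nos3 overlap those of Atg9b on the opposite strand, a gene of autophagy with an FPKM of 0.527 and 1.66 among wildtype, 1.2 and 0.860 among heterozygous and 0.650 and 0.602 among homozygous mice. The libraries kept strand, but whether the authors' counting used it is not stated, and the part of Atg9b in the Nos3 values was not tested.

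Among the receptors for vessel growth factors, Kdr, the main signalling receptor for VEGF-A, had an FPKM of 2.06 and 2.78 among wildtype, 2.48 and 3.51 among heterozygous and 3.84 and 4.25 among homozygous mice. The homozygous mice were the highest and the other genotypes overlapped. Its homozygous against wildtype log2 fold change was 0.73 (SE 0.25, interval 0.11 to 1.35, limma adjusted p = 0.231). In heterozygous against wildtype mice it was 0.29 (SE 0.25, limma adjusted p = 0.908), and in homozygous against heterozygous mice 0.44 (SE 0.25, interval -0.18 to 1.06, limma adjusted p = 0.707). The heterozygous value was 0.08 without mouse 39, 0.50 without mouse 41, 0.53 without mouse 37 and 0.05 without mouse 40, and that of homozygous against heterozygous mice was 0.20 without mouse 37 and 0.68 without mouse 40. Of the 7 markers, Kdr was the only one higher in both homozygous than in both heterozygous mice, the order also seen for Cav1.

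Tek, the receptor for angiopoietins, had an FPKM of 2.05 and 2.33 among wildtype, 2.71 and 3.16 among heterozygous and 1.83 and 4.11 among homozygous mice. The homozygous mice were the lowest and the highest of all, so the difference of 0.32 from wildtype (SE 0.38, interval -0.63 to 1.26, limma adjusted p = 0.685) was smaller than the gap of 1.12 between these mice on the log2 scale. It was 0.88 without mouse 47 and -0.24 without mouse 49. Tie1, its partner receptor, which binds no angiopoietin by itself, had an FPKM of 3.17 and 4.09 among wildtype, 5.65 and 6.29 among heterozygous and 4.76 and 5.86 among homozygous mice. All mutant mice lay above both wildtype mice. The log2 fold change was 0.71 in heterozygous (SE 0.19, interval 0.23 to 1.19, limma adjusted p = 0.468) and 0.54 in homozygous against wildtype mice (SE 0.19, interval 0.06 to 1.02, limma adjusted p = 0.245). The latter was 0.36 without mouse 39.

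Eng, or endoglin, a co-receptor for ligands of the TGF-beta family, had an FPKM of 18.6 and 20.7 among wildtype, 22.1 and 19.9 among heterozygous and 14.7 and 19.2 among homozygous mice. It was the only marker with a lower mean in homozygous than in wildtype mice, by a log2 fold change of -0.23 (SE 0.16, interval -0.63 to 0.18, limma adjusted p = 0.505), which shrank to -0.03 without mouse 47. In heterozygous mice its values overlapped those of wildtype mice, with a difference of 0.09 (SE 0.16, limma adjusted p = 0.965). Fpgs, on the opposite strand, overlaps the end of Eng and had an FPKM of 37.9 to 47.1.

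The adhesion genes Cdh5 and Pecam1 act at endothelial junctions. Cdh5, which encodes VE-cadherin, had an FPKM of 5.54 and 5.15 among wildtype, 7.30 and 8.25 among heterozygous and 8.05 and 10.01 among homozygous mice. Every mutant mouse lay above both wildtype mice. Its homozygous against wildtype log2 fold change was 0.74 (SE 0.16, interval 0.35 to 1.13), with the lowest adjusted p-value of the 10 genes in that comparison (limma adjusted p = 0.142). In heterozygous mice it was 0.53 (SE 0.16, interval 0.14 to 0.92, limma adjusted p = 0.533). Pecam1, the platelet and endothelial adhesion molecule, had an FPKM of 11.1 and 12.4 among wildtype, 17.6 and 18.0 among heterozygous and 12.9 and 17.1 among homozygous mice. Here the heterozygous mice were the highest and the wildtype mice the lowest. The log2 fold change was 0.59 in heterozygous (SE 0.16, interval 0.19 to 1.00, limma adjusted p = 0.478) and 0.34 in homozygous against wildtype mice (SE 0.16, interval -0.07 to 0.74, limma adjusted p = 0.341). Vwf, the clotting factor stored in endothelial cells, had an FPKM of 3.74 and 7.38 among wildtype, 7.84 and 6.93 among heterozygous and 7.05 and 6.36 among homozygous mice. Mouse 39 alone stood low, and without it the Vwf difference was -0.14 in homozygous and -0.0020 in heterozygous mice, in place of 0.34 (limma adjusted p = 0.594) and 0.48 (limma adjusted p = 0.867).

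**Figure D2:**
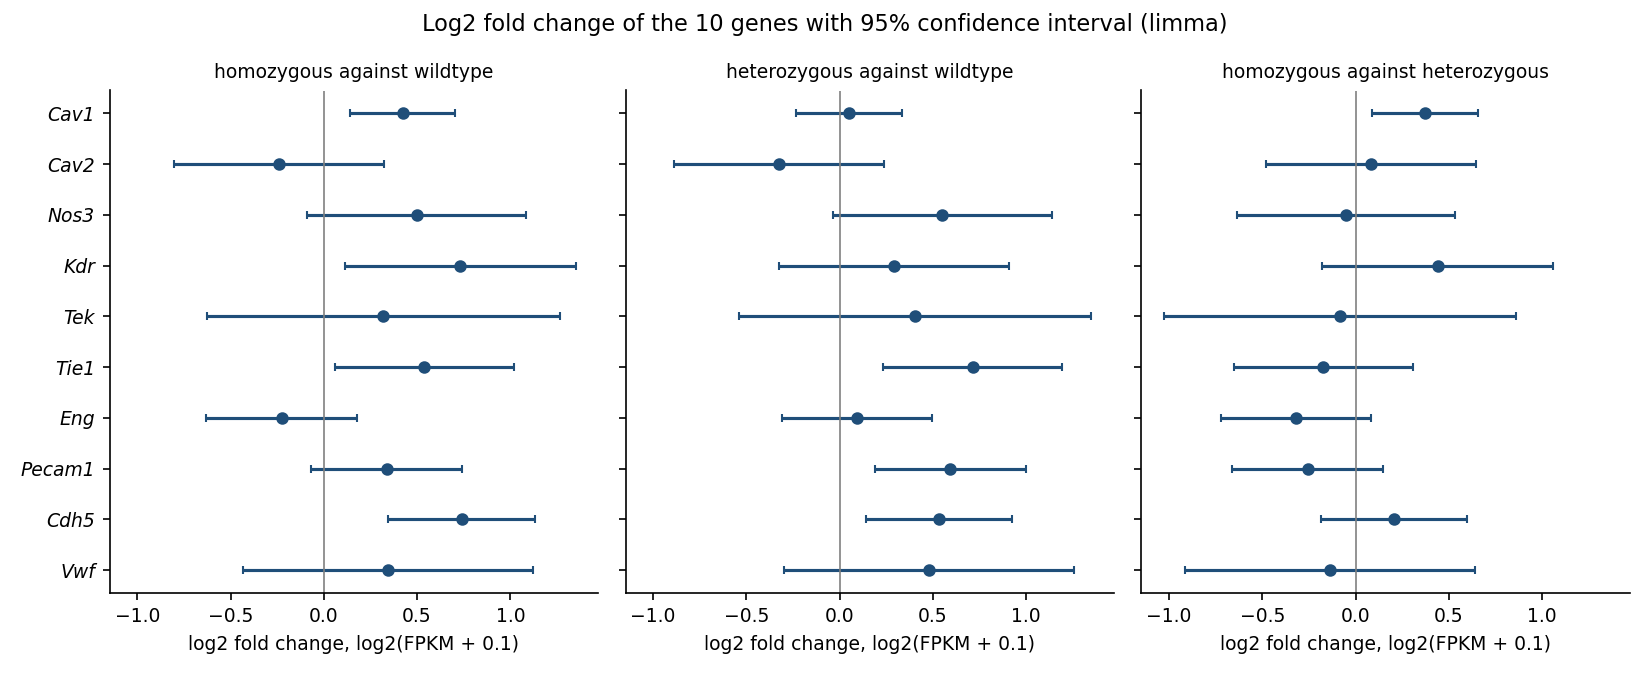
Log2 fold change of log2(FPKM + 0.1) (x axis) of the 10 genes (y axis) in the 3 comparisons, with the 95% confidence interval from limma as a bar and no adjustment for the number of genes. In homozygous against wildtype mice the intervals of Cav1, Kdr, Tie1 and Cdh5 lie above 0, in heterozygous against wildtype mice those of Tie1, Pecam1 and Cdh5, and in homozygous against heterozygous mice only that of Cav1.

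Without mouse 47, the homozygous against wildtype log2 fold change was 0.50 for Nos3, 0.80 for Kdr, 0.69 for Tie1, 0.54 for Pecam1 and 0.89 for Cdh5. Without mouse 49 it was 0.49 for Nos3, 0.66 for Kdr, 0.39 for Tie1, 0.14 for Pecam1 and 0.58 for Cdh5. None of these passed in limma.

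To set Cav1 and Nos3 against vessel content, the mean log2(FPKM + 0.1) of the 7 markers was taken in each mouse and expressed relative to the wildtype mean. This marker mean was -0.15 and 0.15 for wildtype mice 39 and 41, 0.39 and 0.50 for heterozygous mice 37 and 40, and 0.22 and 0.58 for homozygous mice 47 and 49. All 4 mutant mice lay above both wildtype mice, and the genotype means were 0.44 (heterozygous) and 0.40 (homozygous) above wildtype, with a pooled SD between mice of 0.20. In heterozygous against wildtype mice 7 of the 7 markers had a positive fold change, and in homozygous against wildtype mice 6 of 7. Within the genotypes, 6 of 7 markers were higher in mouse 41 than in mouse 39 (all but Cdh5), 5 of 7 in mouse 40 than in mouse 37 (all but Eng and Vwf) and 6 of 7 in mouse 49 than in mouse 47 (all but Vwf). The genes were chosen with results of these data known, so no test of this mean is given.

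Relative to wildtype, Nos3 was at -0.15 and 0.15 in mice 39 and 41, 0.60 and 0.50 in mice 37 and 40, and 0.49 and 0.50 in mice 47 and 49. The difference from the marker mean was 0.00 in mice 39, 41 and 40 and -0.07 in mouse 49, while Nos3 was 0.21 and 0.27 above that mean in mice 37 and 47. As a difference from the markers, Nos3 was thus 0.10 higher in homozygous and 0.11 higher in heterozygous than in wildtype mice, both below the pooled SD of that difference (0.17). Without mouse 47 the homozygous value was -0.07. Against the median of the markers in place of their mean both turned negative, to -0.10 in homozygous and -0.14 in heterozygous mice, and with a pseudocount of 1 they were -0.0015 and -0.01. Over the 6 mice Nos3 had a Pearson's r of 0.88 with the marker mean, given as a description of 6 mice in which the genotypes make up much of the spread.

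Cav1 gave a different picture in the heterozygous mice. Relative to wildtype it was at -0.02 and 0.02 in mice 39 and 41, at 0.00 and 0.09 in mice 37 and 40, and at 0.44 and 0.41 in mice 47 and 49. Against the markers it was 0.39 lower in both heterozygous mice on average (-0.39 and -0.40), below both wildtype mice (0.14 and -0.14), with a pooled SD of 0.20. In the homozygous mice the difference from the markers was 0.02 on average, with 0.22 in mouse 47 and -0.17 in mouse 49. The marker mean was nearly alike in the mutant genotypes (homozygous less heterozygous -0.05), whereas Cav1 differed by 0.37 between them. That mean joined markers of opposite direction. In homozygous against heterozygous mice 2 of 7 were positive, Kdr (0.44) and Cdh5 (0.21), and the others ran from -0.32 (Eng) to -0.08 (Tek). Over the 6 mice Cav1 had a Pearson's r of 0.43 with the marker mean. The difference in the homozygous mice turned to -0.18 when the median of the markers replaced their mean. The heterozygous difference was negative in each setting used, from -0.64 with the marker median to -0.26 without wildtype mouse 39.

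Cav2 was lower relative to the markers in every mutant mouse. The difference was 0.07 and -0.07 in mice 39 and 41, -0.78 and -0.76 in mice 37 and 40, and -0.79 and -0.49 in mice 47 and 49, which leaves the wildtype and mutant values apart. The genotype means lay 0.77 (heterozygous) and 0.64 (homozygous) below wildtype, beside a pooled SD of 0.14. As Cav2 and the markers were picked with results known, this too is given without a test.

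**Figure D3:**
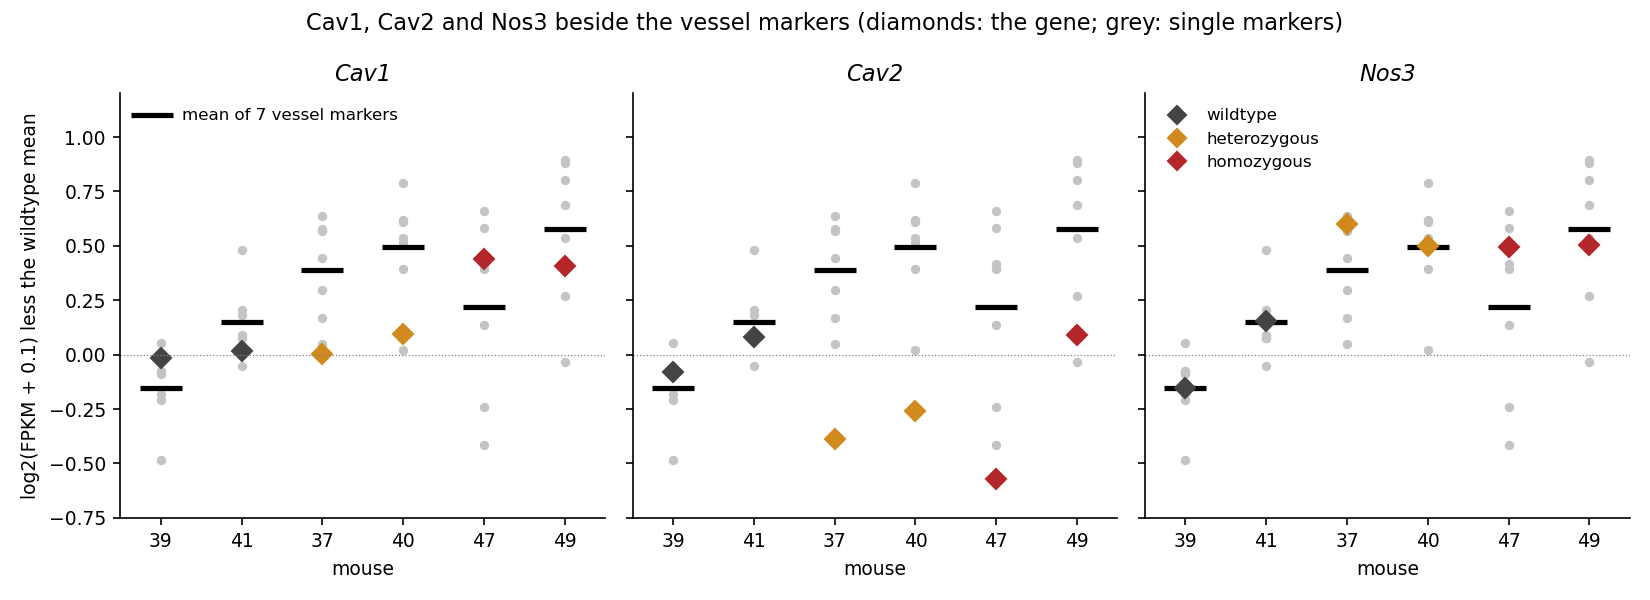
Log2(FPKM + 0.1) less the wildtype mean (y axis) in each mouse (x axis) for Cav1, Cav2 and Nos3 (diamonds coloured by genotype), beside the 7 vessel markers (grey points) and their mean (black bars). Nos3 lies within 0.27 of the marker mean in each mouse, Cav1 lies 0.39 and 0.40 below it in mice 37 and 40, and Cav2 lies 0.49 to 0.79 below it in the 4 mutant mice.

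The genes with the pattern most like Cav1 over the 6 mice, by Pearson's r of log2(FPKM + 0.1), were Snai2 (0.997), a repressor of epithelial genes, Nipbl (0.991), which loads cohesin onto DNA, Nkrf (0.989), Zfp595 (0.988) and Smc4 (0.987), a condensin subunit. The FPKM of Snai2 was 2.13 and 2.12 among wildtype, 2.17 and 2.33 among heterozygous and 3.25 and 3.25 among homozygous mice. Of the 13817 other tested genes, Kdr ranked 422 in likeness to Cav1 (r = 0.86) and Cdh5 ranked 1293 (r = 0.74), while Eng had an r of -0.72 and Cav2 of -0.22. For Nos3, genes among the 5 most alike were Smr2 (0.991), Tmem109 (0.991) and Lrrn2 (0.989). Tie1 ranked 201 in likeness to Nos3 (r = 0.93), Pecam1 696 (r = 0.83), Vwf 845 (r = 0.81) and Cdh5 1023 (r = 0.78). The other markers were less alike, with Kdr at rank 1727 (r = 0.66), Tek at 2964 (r = 0.47) and Eng at 6280 (r = 0.01). Cav2 had an r of -0.46 with Nos3. With 6 mice in 3 genotypes many genes reach a high r, and the coefficients carry no test.

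Of 25 other endothelial genes, 24 passed the filter and Tal1 did not. Their median log2 fold change was 0.52 in homozygous and 0.51 in heterozygous against wildtype mice, with 23 of 24 positive in each and 0 of 24 passing in limma. In homozygous mice 16 of 24 lay above both wildtype mice and 1 below, and in heterozygous mice 22 of 24 lay above and 0 below, against 21.3% and 19.2% of all genes above. Cd34, a surface glycoprotein of vessel cells and their progenitors and the most abundant of the list, had an FPKM of 18.2 and 22.1 among wildtype, 28.1 and 29.2 among heterozygous and 16.0 and 33.5 among homozygous mice. Egfl7, a secreted protein of vessels, had 15.5 and 20.2, 24.2 and 28.0, and 34.6 and 22.8 in the same order. Plvap, which forms the diaphragms of caveolae and of endothelial pores, had 12.3 and 17.6, then 26.2 and 22.2, then 11.5 and 20.9. Mouse 47 was thus the lowest of the mutant mice for Cd34 and Plvap, as it was for Tek, Tie1, Eng and Pecam1, and the highest for Egfl7. With these 24 genes in place of the 7 markers, Cav1 was 0.46 lower relative to endothelium in heterozygous mice and differed by -0.0028 in homozygous mice, and Nos3 differed by 0.04 and 0.07.

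The endothelial lists by vessel type had unlike medians. For the capillary list, the median was 0.77 in homozygous and 0.70 in heterozygous against wildtype mice over 5 genes, all positive and with 0 passing in limma. It held Cd36, the fatty acid transporter, with an FPKM of 17.6 to 36.5 over the 6 mice and overlapping genotypes, Rgcc, a cell cycle regulator, and Gpihbp1, which carries lipoprotein lipase to the capillary surface. The FPKM of Gpihbp1 was 4.60 and 6.09 among wildtype, 9.66 and 9.27 among heterozygous and 10.3 and 8.05 among homozygous mice. The arterial list had medians of 0.31 and 0.41 over 6 genes (Gja5 and Bmx lay under the filter), and the venous list 0.14 (0.24 without mouse 47) and 0.17 over 4 genes (Selp lay under it). Without mouse 49 the homozygous median was 0.12 for the arterial and 0.05 for the venous list. The lymphatic list had -0.22 in homozygous and 0.54 in heterozygous mice over 5 genes. The first became 0.43 without mouse 47 and -0.92 without mouse 49. The lymphatic receptor Lyve1 had an FPKM of 1.46 in mouse 47 against 6.13 to 11.7 in the other mice. The list of endothelial activation genes had -0.18 and 0.07 over 5 genes, with a homozygous median of 0.22 without mouse 47 and -0.65 without mouse 49. None of these genes passed in limma.

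Of the 8 genes for the caveola coat and its accessory proteins, all tested, 7 had a positive fold change in both mutant genotypes and 0 passed in limma, with medians of 0.25 in homozygous and 0.32 in heterozygous mice. Cavin1, without which caveolae do not form, had an FPKM of 60.8 and 52.9 among wildtype, 61.3 and 62.7 among heterozygous and 56.0 and 64.1 among homozygous mice, and so did not share the homozygous Cav1 values. Cavin2, which shapes endothelial caveolae, had 9.79 and 8.63, 10.4 and 12.7, and 12.2 and 14.5, with a log2 fold change of 0.53 in homozygous (limma adjusted p = 0.207) and 0.32 in heterozygous mice (limma adjusted p = 0.843). The largest fold changes were those of Cav3 and Cavin4, the caveolin and cavin of muscle. Cav3 had an FPKM of 1.98 and 2.72 among wildtype, 4.58 and 6.03 among heterozygous and 7.82 and 5.13 among homozygous mice, with a log2 fold change of 1.41 in homozygous (limma adjusted p = 0.128) and 1.14 in heterozygous mice (limma adjusted p = 0.420). Cavin4 had 1.05 in homozygous and 1.06 in heterozygous mice (limma adjusted p = 0.153 and 0.375). Pacsin2, a membrane-bending protein, was the 1 gene of the list with a negative difference, -0.13 and -0.12.

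Of 16 genes that make, use or break down nitric oxide and its cofactors, 14 passed the filter, Nos2 and Prkg1 lay under it, and 0 passed in limma. The median was -0.10 in homozygous (-0.06 without mouse 47) and 0.02 in heterozygous mice, with 7 and 8 of 14 positive, beside medians of -0.04 and -0.01 over all genes. The mean over the list, relative to wildtype, was -0.06 in mouse 47 and 0.13 in mouse 49, so median and mean differ in sign there. The genes Gucy1a1 and Gucy1b1, the subunits of the nitric oxide receptor, were higher in all mutant mice than in both wildtype mice, by 0.51 and 0.52 in homozygous mice and 0.37 and 0.58 in heterozygous mice, and without mouse 47 the homozygous Gucy1a1 difference was 0.80. Pde5a, which breaks down the cGMP they make, had an FPKM of 2.96 and 3.01 among wildtype, 3.24 and 3.93 among heterozygous and 4.24 and 4.88 among homozygous mice. The homozygous difference from wildtype was 0.59 on the log2 scale (limma adjusted p = 0.202). Nos1, the neuronal synthase, which muscle also makes, had a difference of 0.86 in homozygous and 0.63 in heterozygous mice (limma adjusted p = 0.254 and 0.845). Ddah2, which removes an inhibitor of the synthases, had 0.38 and 0.50, and Nostrin, which moves Nos3 away from the membrane, had -1.10 (-0.43 without mouse 47) and -0.29, with values of mutant and wildtype mice overlapping. The most abundant genes of the list, Arg2 (32.7 to 44.8), Spr (28.0 to 42.0) and Pts (27.1 to 32.6), had differences from wildtype of -0.33 to 0.03 on the log2 scale, and without mouse 47 the homozygous difference of Pts was -0.11.

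Of 21 ligands, receptors and signalling genes of vessel growth, 20 passed the filter (Apln did not), 0 passed in limma, and the medians were 0.18 in homozygous and 0.19 in heterozygous mice. Vegfa, the ligand of Kdr, had an FPKM of 32.0 and 48.5 among wildtype, 31.7 and 37.0 among heterozygous and 59.2 and 38.9 among homozygous mice. Its genotypes overlapped, with differences from wildtype of 0.29 in homozygous (-0.02 without mouse 47) and -0.20 in heterozygous mice. Angpt1, the activating ligand of Tek, had an FPKM of 0.718 and 0.897 among wildtype, 1.45 and 1.77 among heterozygous and 1.27 and 2.80 among homozygous mice, and a log2 fold change of 1.14 in homozygous (limma adjusted p = 0.255) and 0.91 in heterozygous mice (limma adjusted p = 0.821). Angpt2, which opposes it, had overlapping values of 1.63 to 2.28. Tgfb1 was higher in every mutant mouse (11.4 to 13.1) than in the wildtype mice (7.13 and 9.78), with differences of 0.54 and 0.60, while Acvrl1, the receptor that works with Eng, had -0.02 in homozygous (0.18 without mouse 47) and 0.28 in heterozygous mice. Id1, a target of that receptor, had an FPKM of 38.9 in mouse 39 and 56.4 to 88.7 in the others.

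Markers of some other cell types also lay apart between the genotypes. For skeletal muscle 10 of 10 marker genes lay above both wildtype mice in both mutant genotypes (21.3% and 19.2% of all genes did so in homozygous and heterozygous mice), with medians of 1.40 in homozygous and 1.25 in heterozygous mice. Their summed FPKM was 1541 and 2268 in the wildtype mice and 4349 to 5278 in the mutant mice. Myoz1, a protein of the muscle Z-disc, passed the test in homozygous mice (1.58, limma adjusted p = 0.048), the 1 gene of all the lists that did. It passed in 6 of 14 alternative settings, with adjusted p-values of 0.034 to 0.276 in limma, and not without mouse 47. Over the 6 mice Nos3 had a Pearson's r of 0.96 with the mean of the skeletal muscle list, beside 0.96 with the platelet genes, 0.95 with the 24 other endothelial genes and 0.93 with the caveola genes. Cav1 had 0.67 with skeletal muscle, 0.75 with the capillary genes and -0.81 with the luminal epithelial genes. For 10 adipocyte genes the medians were 0.70 in homozygous and 0.30 in heterozygous mice, with 7 and 2 of 10 above both wildtype mice, the second near the share over all genes, and their summed FPKM was 517 and 359 among wildtype, 440 and 557 among heterozygous and 754 and 687.5 among homozygous mice. Cfd, Fabp4 and Lpl, genes of fat storage and its secreted products, had homozygous differences of 0.75, 0.84 and 0.78 and heterozygous ones of 0.01, 0.34 and 0.34, none passing in limma. The homozygous Fabp4 difference was 0.42 without mouse 47. Cav1 and the adipocyte sum were both highest in the homozygous mice. So was the skeletal muscle sum, at 5278 and 4632 against 4349 and 4590 in the heterozygous mice. Cav1 had a Pearson's r of 0.64 with the adipocyte mean and 0.65 with the smooth muscle mean, below that with skeletal muscle. Smooth muscle genes had medians of 0.43 and 0.25 over 10 genes, with the actin Acta2 at 498 to 796 FPKM over the 6 mice. Pericyte genes had 0.30 and 0.23 over 8 genes, with 5 positive and 3 negative in each mutant genotype. For fibroblasts the medians were 0.25 and 0.30 over 7 genes. Of these, 0 lay above both wildtype mice in homozygous and 7 in heterozygous mice (21.3% and 19.2% of all genes). Without mouse 47 the homozygous median was 0.22 for smooth muscle and 0.75 for fibroblasts, and without mouse 49 it was 0.70 and -0.30.

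Luminal epithelial genes ran the other way, with 9 of 9 negative in both mutant genotypes, medians of -0.69 in homozygous and -0.21 in heterozygous mice and -0.40 in homozygous mice without mouse 47. Their summed FPKM was 17774 and 15399 among wildtype, 11781 and 11873 among heterozygous and 1846 and 11182 among homozygous mice. Most of the sum in mouse 39 was Pbsn (11192) and Msmb (4708), which had an FPKM of 257 and 387 in mouse 47. The keratin Krt18, the next most abundant, differed less, with 462 and 458 among wildtype and 367 and 351 among homozygous mice. Its homozygous against wildtype log2 fold change was -0.36 (limma adjusted p = 0.336). Basal epithelial genes had medians of 0.24 (0.04 without mouse 47) and 0.06 over 4 genes, with 2 positive and 2 negative in each mutant genotype. The blood lists had medians of 0.36 (0.71 without mouse 47 and 0.09 without mouse 49) and 0.63 for 5 red cell genes. For 3 platelet genes (Ppbp and Gp9 lay under the filter) they were 0.63 and 0.52, with 2 and 3 of 3 positive. The 6 macrophage genes had -0.10 and 0.37, the first becoming 0.55 without mouse 47 and -0.73 without mouse 49. Above both wildtype mice lay 0 of 5 red cell genes in each mutant genotype, against 21.3% (homozygous) and 19.2% (heterozygous) of all genes. Of the macrophage genes 0 of 6 lay there in homozygous and 6 of 6 in heterozygous mice. Of these lists 0 genes passed in limma. No gene of any list was at 0 in any mouse. The part of muscle, fat, epithelium and blood in the values of Cav1, Nos3 and the vessel markers was not tested, and in these 6 mice the tissue makeup of a gland and its genotype cannot be told apart.

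**Figure D4:**
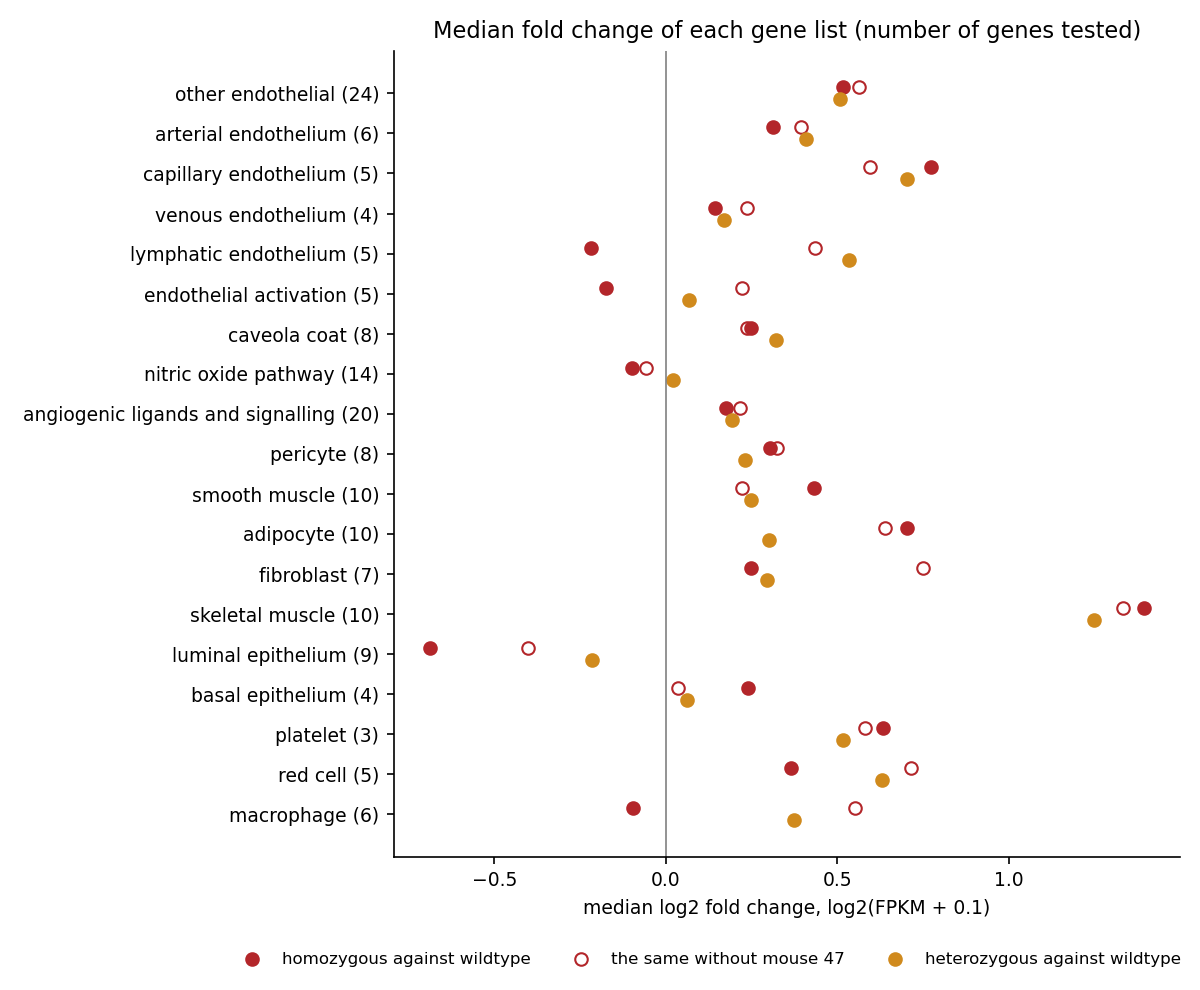
Median log2 fold change on the log2(FPKM + 0.1) scale (x axis) of each gene list (y axis, with the number of genes tested), in homozygous against wildtype mice (red), the same without mouse 47 (open) and heterozygous against wildtype mice (orange). Skeletal muscle has the highest medians (1.40 and 1.25) and luminal epithelium the lowest (-0.69 and -0.21), and the other endothelial genes sit at 0.52 and 0.51.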

How the data were processed

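Prostate RNA of 6 irradiated mice was measured by RNA-Seq, with 2 mice per genotype. Per the paper's methods and the submitters' processing notes, the authors made stranded mRNA libraries, sequenced pairs of reads, aligned them with HISAT to GRCm38 (mm10) and deposited FPKM per gene and mouse, made with Cufflinks. Cuffnorm and bcl2fastq are also named in the notes. Tool versions, the annotation and strand use in counting are not given in the sources used here. FPKM corrects for exon length and for mapped fragments, and holds no counts, so no count test was used and no counting interval can be given.

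Groups came from the labels, with the animal number as replicate. The mice are separate animals, and no litter or batch is given. Values were taken as log2(FPKM + 0.1) where the mean FPKM was 1 or more (13818 genes). The model was limma 3.58.1 under R 4.3.3 with 3 genotypes and an intensity trend, with Benjamini-Hochberg adjustment over all tested genes. The fit code was tested on simulated data with independent errors between genes, which does not show how it behaves on these mice. Positions follow GENCODE M21, and promoters RefSeq (GRCm38.p6). Python 3.11.15 with pandas 2.3.3, numpy 2.4.6 and matplotlib 3.10.9 was used for the rest.

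The 10 genes and the 19 gene lists were chosen with earlier results of these data known. Named are the 10 genes, for Cav1 and Nos3 the 5 tested genes with the highest Pearson's r (predicted and RIKEN names left out), of each list up to 3 of the most abundant genes and any that passed, and members of the caveola, nitric oxide and vessel growth lists. The genes under the filter were named after their values were seen. Some genes that the rule names are not reported here. Alternatives were pseudocounts of 1 and 0.01, no filter, a mean FPKM of at least 5, median scaling, quantile normalization, no intensity trend, a test on each gene alone, leaving out each mouse, and, for the differences from the markers, the other endothelial genes or the marker median.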

Additional observations from a re-analysis of the deposited data

How the results depend on the processing

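Of 408 fold changes of the 10 genes in the alternative settings, 400 kept the sign of the reported value and 0 had an adjusted p-value under 0.05 in limma, with 0.133 as the lowest. The 8 that reversed came from leaving out 1 mouse, and their cause was not tested beyond that. Over the left-out mice, Cav2 ran from -0.57 to 0.089 (0.089 without mouse 47) and Tek from -0.24 (without mouse 49) to 0.88 in homozygous against wildtype mice. Vwf ran from -0.14 (without mouse 39) to 0.83 in that comparison and from -0.0020 (without mouse 39) to 0.96 in heterozygous against wildtype mice. In homozygous against heterozygous mice Cav2 ran from -0.25 (without mouse 49) to 0.41, Nos3 from -0.10 to 0.0014 (without mouse 37) and Tek from -0.64 to 0.48 (0.02 without mouse 40 and 0.48 without mouse 47).

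Counts over all genes moved more. The F-test count of 14 was 3 without a filter, 4 after quantile normalization, 9 without the trend, 0 with each gene alone and 0 to 10 with a mouse left out. The homozygous against wildtype count of 53 was 4 without a filter, 23 without the trend, 0 with each gene alone and 4 (without mouse 37 or 47) to 128 (without mouse 49). The heterozygous count of 0 ran to 2 with a mouse left out. The homozygous against heterozygous count of 2 was 1 with a pseudocount of 0.01 or a mean FPKM of at least 5, 0 with each gene alone, and 0 to 54 with a mouse left out.

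Against the marker median in place of the mean, the homozygous and heterozygous differences from wildtype were -0.18 and -0.64 for Cav1, -0.10 and -0.14 for Nos3 and -0.84 and -1.01 for Cav2. With a mouse left out, the homozygous difference ran from -0.17 to 0.22 for Cav1, from -0.073 to 0.27 for Nos3 and from -0.79 to -0.49 for Cav2. No paired analysis was possible because the labels give the mice animal numbers that no genotypes share. Depth is unknown beyond its ratio between mice.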
